A study of Homo sapiens with 12 samples.

Results

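The 10 genes examined encode the machinery that puts the histone variant H2A.Z into nucleosomes and takes it out again. They were chosen by name, as listed subunits of the SRCAP and p400/TIP60 complexes (SRCAP, EP400, VPS72, RUVBL1, RUVBL2, ACTL6A, ZNHIT1, YEATS4 and DMAP1) and as the H2A.Z chaperone ANP32E. All 10 were among the 18417 genes measured, and each had 1 probe set with a single gene symbol. Values come from 12 Affymetrix arrays of SK-mel147, an established human melanoma line, 2 arrays for each of 6 lentiviral hairpins. The control hairpins were scrambled and luciferase, sh_37 and sh_38 targeted H2AZ2 (protein H2A.Z.2), and sh_83 and sh_84 targeted H2AZ1 (protein H2A.Z.1). All cells were infected with a hairpin vector, controls included, and by their labels the groups differ only in the hairpin. The labels used here state neither the time after infection nor whether replicates were separate cultures. The p-values therefore rest on array-to-array spread that may be purely technical.

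SRCAP and p400 are the ATPases of related remodelling complexes that exchange H2A-H2B dimers for H2A.Z-H2B dimers, mainly at promoters and enhancers. VPS72 (YL1) carries the H2A.Z-H2B dimer, RUVBL1 and RUVBL2 form an AAA+ ATPase ring, and ACTL6A is an actin-related subunit. ZNHIT1, YEATS4 (GAS41) and DMAP1 are further subunits, and the complexes hold others besides. ANP32E works in the opposite direction: it binds H2A.Z and removes it from chromatin.

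All values are log2 expression, and a difference is hairpin minus the mean of both control hairpins unless stated. A gene is called when its limma p, adjusted over all 18417 genes, is under 0.05, and intervals are 95%. The knockdown was measured first. H2AZ2 averaged 11.00 ± 0.05 in the controls (SD, n = 4) and the sh_37 arrays kept 46.1% of that level, the sh_38 arrays 65.4%. With these hairpins H2AZ1 stood at 86.2% (sh_37) and 90.5% (sh_38) of its control level, neither called (limma adjusted p = 0.19 and 0.396). Their 4 arrays lay below all 4 controls for H2AZ1, as for 7.46% of all genes. H2AZ1 was reduced to 19.3% of its control level by sh_83, whereas the arrays labelled sh_84 had 92% and were not called lower. The labels of replicate 2 of the latter contradict each other on the hairpin, and its title was used. Array medians lay between 7.00 and 7.10, and replicates of a hairpin correlated at 0.9918 to 0.9976 over genes. Of the 8 melanocyte markers measured, SOX10 averaged 10.62 ± 0.12, PAX3 8.74 ± 0.18 and MITF 8.29 ± 0.02 in the controls (SD, n = 4). The pigment genes TYR (4.84), MLANA (5.09), TYRP1 (4.76) and PMEL (5.72) had low values, as did S100B (5.44). Of the keratinocyte, fibroblast, endothelial and leukocyte markers, KRT14 (8.31), LUM (8.81) and CD68 (11.45) stood above MITF and the others below. No detection calls were analysed here, so whether a low value is above background is unknown.

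Promoter windows of the 250 bases before an annotated start were in the RefSeq-derived table (GRCh38.p14) for 7 of the 10 genes, in 9 windows. ANP32E, VPS72 and ACTL6A had none. A pair of windows is shown: YEATS4, because it was called lower and moved with ANP32E, and the downstream of the RUVBL1 starts, because it was the single member window that held an E2F string although RUVBL1 was not called with any hairpin. Both are written 5′ to 3′ on the strand of the gene, at chr12:69359493-69359742 (plus strand) and chr3:128123813-128124062 (minus strand).
YEATS4: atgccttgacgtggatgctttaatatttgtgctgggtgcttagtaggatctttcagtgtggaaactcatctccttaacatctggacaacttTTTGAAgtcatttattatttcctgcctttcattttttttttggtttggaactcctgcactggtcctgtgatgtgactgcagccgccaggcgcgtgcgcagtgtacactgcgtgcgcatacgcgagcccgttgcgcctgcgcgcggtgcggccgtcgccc
RUVBL1: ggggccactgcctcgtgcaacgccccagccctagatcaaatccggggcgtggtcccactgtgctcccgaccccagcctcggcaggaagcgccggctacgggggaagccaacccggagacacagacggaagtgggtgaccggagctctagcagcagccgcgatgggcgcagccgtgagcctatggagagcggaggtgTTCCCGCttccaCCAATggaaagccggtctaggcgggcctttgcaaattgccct
Capitals mark the strings searched on both strands, none of which overlaps another there. In YEATS4 it is a CHR string (TTTGAA), which starts 159 bases before the start, and in RUVBL1 an E2F string (TTCCCGC, or TTGGCGC elsewhere) 54 bases and a CCAAT string 42 bases before it. Of 35116 windows of this length, 13.3% held the CHR string, 7.81% an E2F string and 32% CCAAT. The ETS string CCGGAAG was in windows of EP400, ZNHIT1 and DMAP1 (8.52% of all windows), and the E-box CACGTG in no member window (6.34% of all). RUVBL2 windows held CCAAT and TTTGAA, DMAP1 also held CCAAT, and the SRCAP window held none of these strings. A match is a string and not a measured binding site.

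Among the 10 genes the H2A.Z remover ANP32E and the histone reader YEATS4 had the largest differences, and both lay lower with the H2AZ2 hairpins. With sh_38 they were called, ANP32E at 66.5% and YEATS4 at 69.8% of the control level. The 8 others were called with no hairpin. The loading ATPases SRCAP and EP400 and the H2A.Z-binding subunit VPS72 kept within 0.25 of the controls with every hairpin. With sh_38, 2 of 10 genes were called lower and none higher, where 3.33% of all genes were called lower and 4.6% in either direction. With the other hairpins 0 of 10 passed limma's test. At an unadjusted p under 0.05 the counts were 3 with sh_37 (24.4% of all genes), 2 with sh_38 (20.1%), 1 with sh_83 (10.2%) and 0 for sh_84 (8.36%). Over all genes 12.9% were called with sh_37, 0.641% with sh_83 and 0.353% with sh_84, in either direction. The median difference of the 10 genes was -0.03 with sh_37, 0.01 with sh_38, -0.06 with sh_83 and 0.07 with sh_84, beside medians of 0.01, 0.03, 0.01 and 0.01 over all genes. Both arrays of a hairpin lay below all 4 controls for 4 of the 10 genes with sh_37 (17.2% of all genes), 2 with sh_38 (12.8%) and 3 with sh_83 (10.9%). They lay above all controls for VPS72 alone, with sh_37 (13.9% of all genes) and with sh_38 (9.49%).

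**Figure D1:**
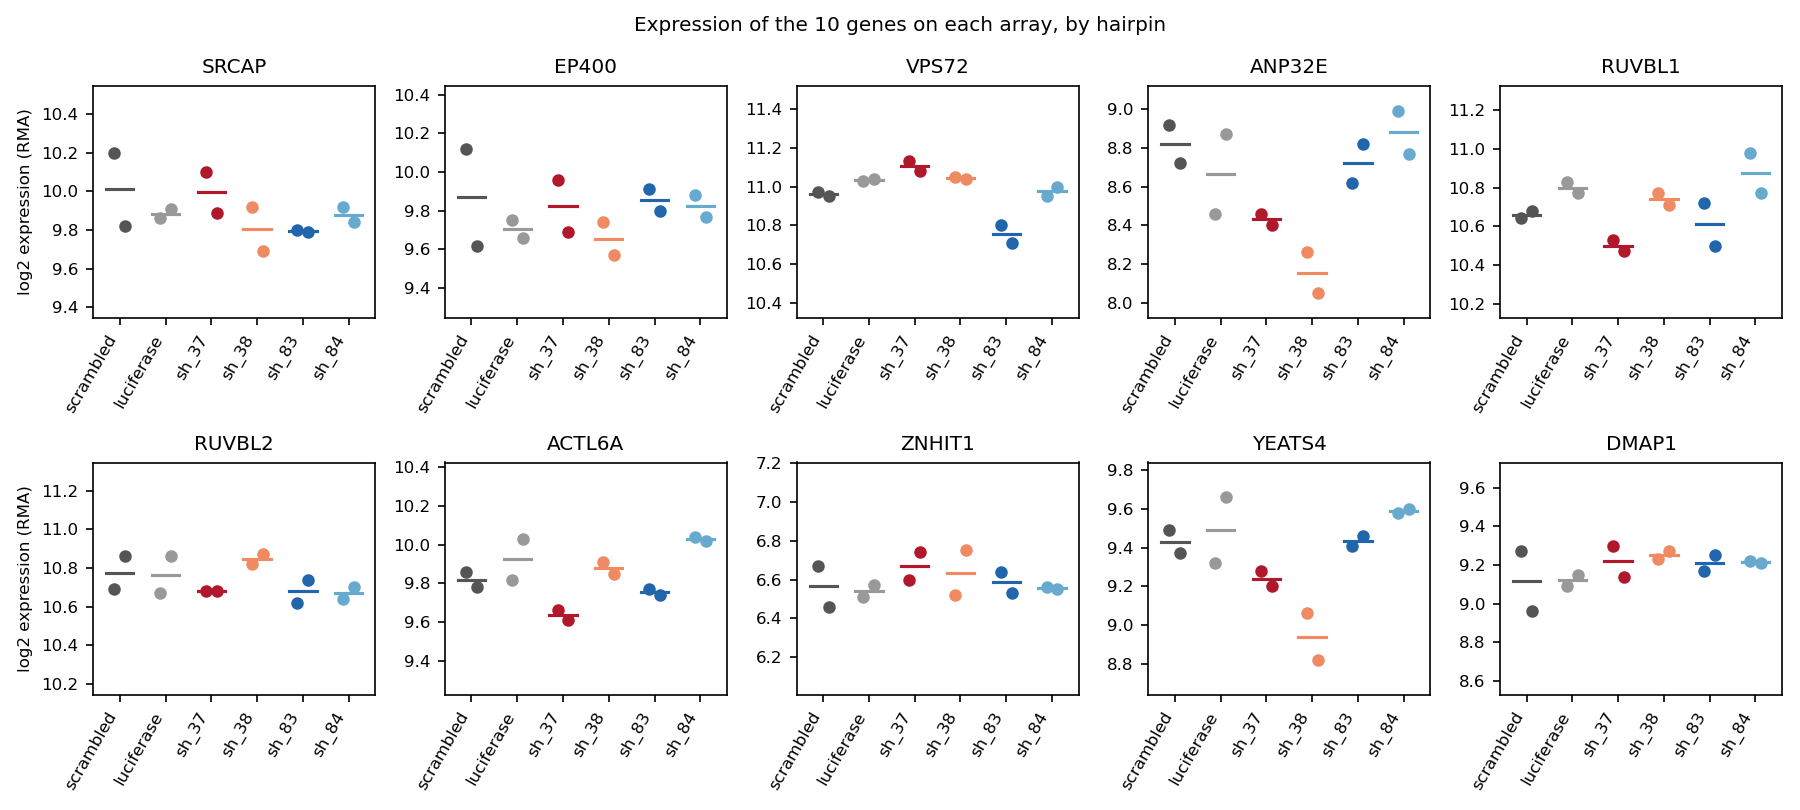
Log2 expression (RMA) of each of the 10 genes on the 12 arrays, by hairpin; points are arrays, short lines are means of 2 arrays, and every panel spans the same height. ANP32E and YEATS4 are lowest on the sh_38 arrays (8.05 and 8.26, 8.82 and 9.06), and VPS72 is lowest with sh_83 (10.71 and 10.80).

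ANP32E is an acidic nuclear chaperone that strips H2A.Z from nucleosomes. Its values were 8.92 and 8.72 with scrambled, 8.46 and 8.87 with luciferase, 8.46 and 8.40 with sh_37, and 8.26 and 8.05 with sh_38. With the H2AZ1 hairpins it stood at 8.62 and 8.82 for sh_83 and at 8.99 and 8.77 for the arrays labelled sh_84. The 4 arrays with H2AZ2 hairpins lay below all 4 controls, although replicate 1 of luciferase and of sh_37 are equal to the decimals printed. The difference was -0.59 with sh_38 (SE 0.13, interval -0.87 to -0.31, limma adjusted p = 0.0263) and -0.31 with sh_37 (SE 0.13, interval -0.60 to -0.03, limma adjusted p = 0.154). H2AZ2 itself was lower with sh_37 than with sh_38 (-0.50, limma adjusted p = 0.00763), so the larger ANP32E difference came with the weaker of the knockdowns. Between these hairpins ANP32E differed by 0.28 (interval -0.05 to 0.60, limma adjusted p = 0.387), which did not pass. Over both H2AZ2 hairpins, with the hairpin as a random block, the difference was -0.45 (SE 0.13, limma adjusted p = 0.0745). The sh_38 call was lost without replicate 2 of sh_38 (-0.485, adjusted p = 0.291), without replicate 1 of scrambled (-0.54, adjusted p = 0.0633), without replicate 2 of luciferase (-0.49, adjusted p = 0.0661) and against luciferase alone (-0.51, adjusted p = 0.0894). Over the 21 alternatives limma's adjusted p ranged from 0.0095 to 0.291.

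YEATS4 reads acetylated histone H3 and is shared by the SRCAP and TIP60 complexes. It measured 9.49 and 9.37 with scrambled, 9.32 and 9.66 with luciferase, 9.28 and 9.20 with sh_37, and 9.06 and 8.82 with sh_38. The sh_83 arrays had 9.41 and 9.46 and the arrays labelled sh_84 had 9.58 and 9.60. Again the H2AZ2 arrays lay below all 4 controls, while the H2AZ1 arrays lay within their range. With sh_38 the difference was -0.52 (SE 0.11, interval -0.75 to -0.29, limma adjusted p = 0.0197), and with sh_37 it was -0.22 (SE 0.11, interval -0.45 to 0.02, limma adjusted p = 0.241). The hairpins differed from each other by 0.30 (interval 0.03 to 0.57, limma adjusted p = 0.221), and over both the difference was -0.37 (SE 0.11, limma adjusted p = 0.097). Leaving out replicate 2 of sh_38 (-0.40, adjusted p = 0.257) or taking scrambled as the single control (-0.49, adjusted p = 0.0677) ended the sh_38 call. Over the 21 alternatives limma's adjusted p ranged from 0.00538 to 0.257.

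ANP32E and YEATS4 ran together over the arrays, with a Pearson r of 0.942 over 12 arrays, 0.864 over the 10 arrays without sh_38 and 0.738 over the 8 arrays without H2AZ2 hairpins. This pair was picked after its values were seen among all pairs of the 10 genes, and the arrays share their hairpin groups. Over the same 12 arrays the genes most like ANP32E were ATAD5 (r = 0.959), which unloads the replication clamp, the checkpoint kinase CHEK1 (0.957) and the mitotic kinase MASTL (0.955).

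**Figure D2:**
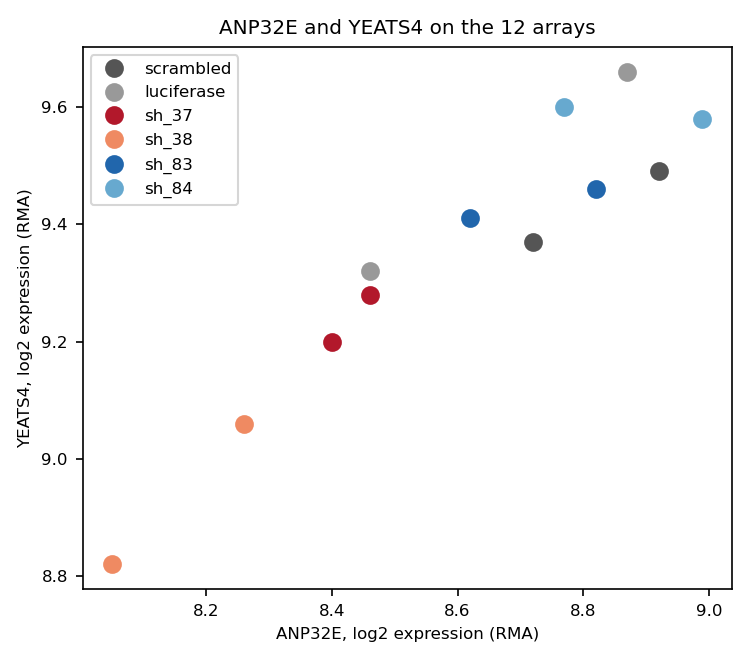
Log2 expression (RMA) of ANP32E against YEATS4; each point is 1 of the 12 arrays, coloured by hairpin. The sh_38 arrays sit lowest on both axes, the sh_37 arrays next, and the arrays labelled sh_84 reach 8.99 for ANP32E and 9.60 for YEATS4.

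Markers of cycling cells were lower in the same arrays. Of 17 proliferation markers, 17 were called lower with sh_37 (7.19% of all genes) and 9 with sh_38 (3.33%), among them CDK1 (-0.82 and -0.62) and MCM6 (-0.80 and -0.65), and the medians were -0.54 and -0.37. For either H2AZ1 hairpin none was called by limma (2 and 0 at an unadjusted p under 0.05, medians -0.06 and 0.11). Averaged over the list, arrays with H2AZ2 hairpins ranged from 9.98 to 10.25, controls from 10.48 to 10.63 and H2AZ1 arrays from 10.47 to 10.70. Between sh_37 and sh_38 these markers differed by a median of -0.20, with a range from -0.46 to 0.17. ANP32E and YEATS4 stood lower with sh_38, but neither differed between these hairpins beyond the threshold (limma adjusted p = 0.387 and 0.221). The part of the markers in the result was not tested.

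SRCAP and EP400, the ATPases that drive H2A.Z loading, showed no called difference. SRCAP measured 10.20 and 9.82 with scrambled, 9.86 and 9.91 with luciferase, 10.10 and 9.89 with sh_37, and 9.92 and 9.69 with sh_38. It stood at 9.80 and 9.79 with sh_83 and at 9.92 and 9.84 in the arrays labelled sh_84. The highest value of all was replicate 1 of scrambled, and the H2AZ2 arrays overlapped the controls. The sh_83 arrays lay just below all controls, whose lowest value was 9.82. Differences were 0.05 with sh_37 (interval -0.21 to 0.30), -0.14 with sh_38 (-0.40 to 0.11), -0.155 with sh_83 (-0.41 to 0.10) and -0.07 for sh_84 (-0.32 to 0.19). EP400 measured 10.12 and 9.62 with scrambled, 9.75 and 9.66 with luciferase, 9.96 and 9.69 with sh_37, and 9.74 and 9.57 with sh_38. With sh_83 it had 9.91 and 9.80, and in the arrays labelled sh_84 9.88 and 9.77. Replicates of scrambled alone spanned 0.49, wider than any EP400 difference, which ran from -0.13 (sh_38) to 0.06 (sh_83). EP400 was higher in replicate 1 than in replicate 2 with every hairpin, and SRCAP with every hairpin except luciferase. The lowest interval bounds were -0.41 for SRCAP (sh_83) and -0.42 for EP400 (sh_38), with standard errors of 0.12 and 0.13.

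Over the 12 arrays SRCAP was most like MTND2P28 (r = 0.968), a nuclear copy of a mitochondrial gene whose signal is therefore uncertain, then NEURL4 (0.942) and HELZ (0.924), and EP400 most like GBF1 (0.930), KMT2D (0.903) and PLEC (0.883). SRCAP and EP400 correlated with each other at 0.769 over 12 arrays and at 0.571 over the 11 arrays without replicate 1 of scrambled, where both were highest. The part of replicate number in these correlations was not tested.

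VPS72 holds the H2A.Z-H2B dimer during exchange and was the steadiest of the genes among the controls, with 10.97 and 10.95 for scrambled and 11.03 and 11.04 for luciferase. It stood at 11.13 and 11.08 with sh_37, 11.05 and 11.04 with sh_38, 10.80 and 10.71 with sh_83 and 10.95 and 11.00 in the arrays labelled sh_84. The sh_83 arrays were the lowest of the 12, and the sh_37 and sh_38 arrays lay just above all controls. The sh_83 difference was -0.24 (SE 0.07, interval -0.40 to -0.09, limma adjusted p = 0.198), 84.5% of the control level, and passed only with an intensity trend and robust variances (adjusted p = 0.0405). H2AZ1 was lower with this hairpin and not measurably so in the arrays labelled sh_84, where VPS72 differed by -0.02 (interval -0.17 to 0.13). Set directly against each other, sh_83 and sh_84 differed by -0.22 (interval -0.40 to -0.04, limma adjusted p = 0.276). As H2AZ1 was called lower with sh_83 alone, the target of that hairpin and the hairpin itself cannot be told apart here. A link to VPS72 was not tested. With sh_37 and sh_38 VPS72 stood at 0.11 and 0.05, and neither passed (limma adjusted p = 0.4 and 0.694).

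RUVBL1 and RUVBL2 form the ATPase ring on which the complexes are built and serve several other assemblies, and ACTL6A is likewise shared with INO80 and BAF remodellers. ACTL6A measured 9.86 and 9.78 with scrambled, 9.82 and 10.03 with luciferase, 9.66 and 9.61 with sh_37, and 9.91 and 9.85 with sh_38. It had 9.77 and 9.74 with sh_83 and 10.04 and 10.02 in the arrays labelled sh_84. The sh_37 arrays were the lowest, and the sh_37 and sh_83 arrays did not overlap the controls, whose lowest value was 9.78. The sh_37 difference of -0.24 did not pass (SE 0.08, interval -0.42 to -0.06, limma adjusted p = 0.0811). It passed with an intensity trend and robust variances (adjusted p = 0.0376) and without replicate 1 of luciferase (-0.295, adjusted p = 0.0308).

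RUVBL1 measured 10.64 and 10.68 with scrambled, 10.83 and 10.77 with luciferase, 10.53 and 10.47 with sh_37, and 10.77 and 10.71 with sh_38. It had 10.72 and 10.50 with sh_83 and 10.98 and 10.77 in the arrays labelled sh_84. Its sh_37 arrays lay below all controls (-0.23, limma adjusted p = 0.142), and its differences were -0.12 with sh_83, 0.01 with sh_38 and 0.14 for sh_84. ACTL6A had the same order, with -0.12, 0.01 and 0.15 for those hairpins in turn. Between sh_37 and sh_38 the difference was -0.24 for RUVBL1 (limma adjusted p = 0.252) and -0.25 for ACTL6A (limma adjusted p = 0.174), so neither differed beyond the threshold. Of the 10 genes, 0 were called between sh_37 and sh_38 (3 at an unadjusted p under 0.05), where 6.27% of all genes were called and 17.7% had such an unadjusted p. Between sh_83 and sh_84 0 were called (3 unadjusted), where 1.19% of all genes were called and 11.8% had such a p. The pair correlated at 0.806 over 12 arrays and 0.655 over the 8 without H2AZ2 hairpins, also picked after the values were seen. RUVBL2, the ring partner of RUVBL1, did not share this order: it ranged from 10.62 to 10.87 over all arrays, and differences ran from -0.10 (sh_84) to 0.07 (sh_38).

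ZNHIT1, a zinc-finger subunit of the SRCAP complex needed for H2A.Z loading, ranged from 6.46 to 6.75 over the 12 arrays. Differences ran from 0.003 (sh_84) to 0.12 (sh_37, interval -0.09 to 0.33). All ZNHIT1 values lay below the lowest array median of 7.00, and its mean level was at percentile 30.1 among the genes measured. Whether this probe set read above background is unknown, so its small differences need not mean steady expression. DMAP1, a subunit shared by both complexes, ranged from 8.96 to 9.30 and stood at 0.09 to 0.14 above the controls with every hairpin. Its lowest array was replicate 2 of scrambled, the arrays of each hairpin overlapped the controls, and the lowest limma adjusted p was 0.421 (sh_38).

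**Figure D3:**
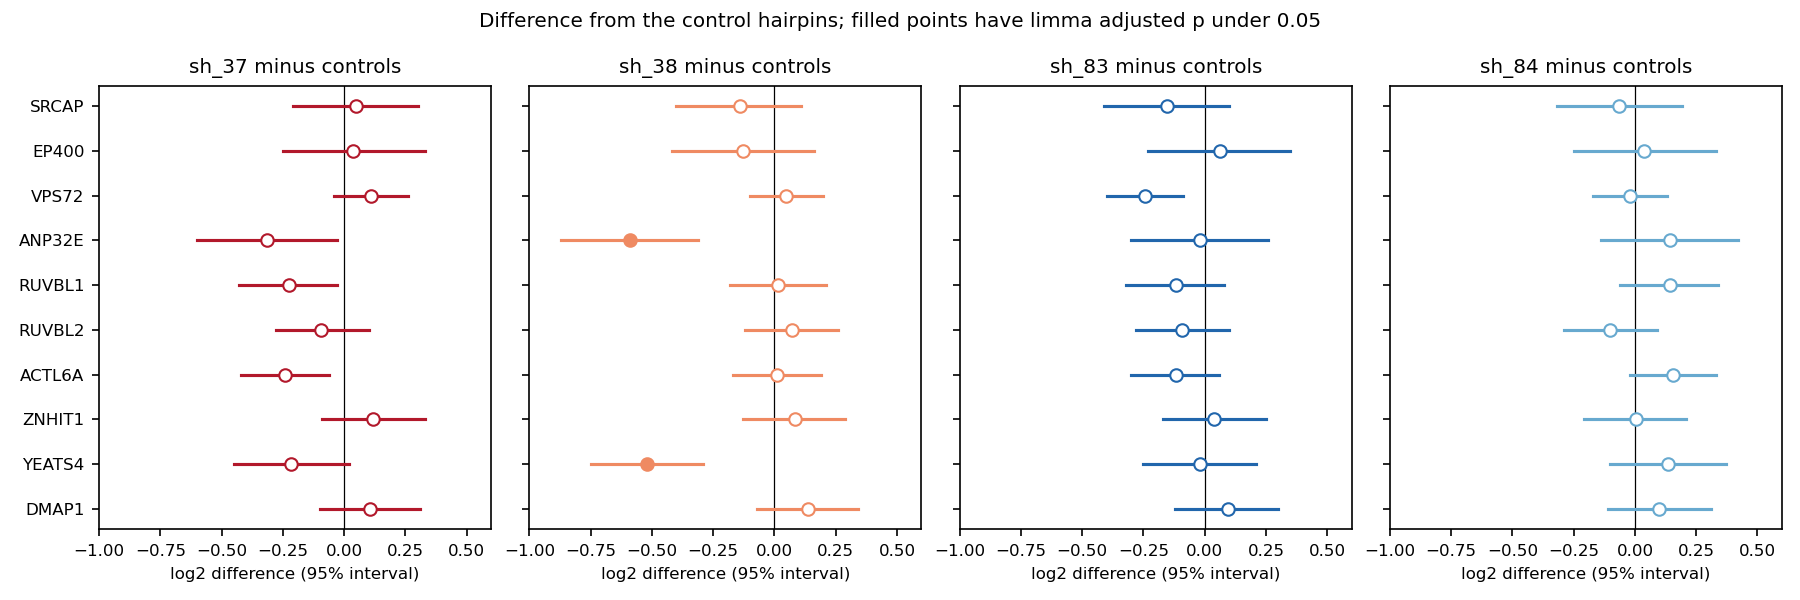
Log2 difference of each gene from the control hairpins, in 1 panel per hairpin; points are differences of means (2 arrays against 4), bars are 95% intervals from limma, and filled points have an adjusted p under 0.05. The filled points are ANP32E (-0.59) and YEATS4 (-0.52) with sh_38, and the VPS72 bar with sh_83 ends at -0.09.

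Set over targets, 0 of 10 genes passed limma's test for both H2AZ2 hairpins together (2 at an unadjusted p under 0.05, ANP32E and YEATS4), where 3.31% of all genes were called in either direction and 17% had such a p. Their 4 arrays lay below all controls, as for 7.46% of all genes, and those of VPS72 above, as for 4.14%. For both H2AZ1 hairpins 0 of 10 passed and 0 had an unadjusted p under 0.05, where 0% of all genes were called and 3.45% had such a p. That fit joins sh_83 with the arrays labelled sh_84 and did not call H2AZ1 itself (-1.25, SE 0.43). It could therefore miss a change present with sh_83 alone. In the direct comparison of H2AZ2 with H2AZ1 hairpins, ANP32E was lower by a difference of -0.51 (SE 0.13, limma adjusted p = 0.0397) and YEATS4 by -0.43 (SE 0.11, limma adjusted p = 0.0484), with the 4 arrays of each target wholly apart. Over 25 alternatives ANP32E passed in 13 (adjusted p 0.0199 to 0.314) and YEATS4 in 8 (0.0206 to 0.39). In this comparison 2.28% of all genes were called lower and 4.35% in either direction, 17% had an unadjusted p under 0.05 (3 of the 10), and 6.84% had all H2AZ2 arrays lower and 6.43% all higher. VPS72 stood 0.21 higher with H2AZ2 hairpins, also with arrays wholly apart, and did not pass (limma adjusted p = 0.163). The H2AZ1 side includes the arrays labelled sh_84, and without that hairpin neither gene passed (ANP32E -0.43, limma adjusted p = 0.314; YEATS4 -0.35, limma adjusted p = 0.39). Without sh_38 they stood at -0.375 and -0.275 (limma adjusted p = 0.119 and 0.157), and with scrambled replicate 1 left out of the shared spread the adjusted p was 0.0934 and 0.122. The scrambled and luciferase controls differed in 0 of the 10 genes by limma (0 at an unadjusted p under 0.05), where 0% of all genes were called and 7.51% had such a p, and the widest gap was 0.17 for EP400.

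Beyond the 10 genes, 42 other genes of the same or neighbouring machinery were measured. With sh_37 7 of the 42 were called lower and 1 higher, where 7.19% of all genes were called lower and 12.9% in either direction. With sh_38 2 were called lower and 1 higher, where 3.33% of all genes were called lower and 4.6% in either direction. At an unadjusted p under 0.05 there were 12 with sh_37 and 11 with sh_38, beside 24.4% and 20.1% of all genes. For the H2AZ1 hairpins limma called none (6 and 3 at an unadjusted p under 0.05, beside 10.2% and 8.36% of all genes). With a single array left out or another setting, the count of called genes ran from 4 to 9 with sh_37 and from 0 to 5 with sh_38. Their medians were -0.15, -0.08, -0.04 and 0.02 in turn. Comparisons with sh_37 and sh_38 share their control arrays.

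Of 10 histone chaperones measured (ANP32E included) 4 were called lower with sh_37 and 2 with sh_38, where 7.19% and 3.33% of all genes were called lower, with medians of -0.24 and -0.17. NASP, a histone chaperone known mainly for H3-H4, stood at -0.59 with sh_37 (limma adjusted p = 0.000562) and -0.375 with sh_38 (limma adjusted p = 0.0191), and was the single gene of the 42 called over both H2AZ2 hairpins (-0.48, limma adjusted p = 0.0179). The sh_38 call was lost against scrambled alone, without luciferase replicate 2 and without either sh_38 array (highest adjusted p = 0.184). The call over both hairpins was lost without scrambled replicate 1 or luciferase replicate 2, without either control hairpin and without sh_37 (highest adjusted p = 0.138). ANP32B, a paralog of ANP32E, fell with sh_37 (-0.63, SE 0.08, limma adjusted p = 0.00052) and stood at -0.19 with sh_38. The paralogs thus stood in opposite order over the H2AZ2 hairpins, and the difference between hairpins passed for ANP32B (-0.44, limma adjusted p = 0.0167) and not for ANP32E. Without any single sh_37 or sh_38 array it did not pass for ANP32B either (highest adjusted p = 0.171). SSRP1 and SUPT16H, the subunits of the H2A-H2B chaperone FACT, were called lower with sh_37 (-0.30 and -0.285) and lost that call without either replicate of sh_37, among other settings.

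In the p400/TIP60 list 2 of 18 genes were called lower and 1 higher with sh_37 (12.9% of all genes called in either direction), and 2 lower with sh_38 (3.33% of all genes called lower). MRGBP, a small subunit of the TIP60 module, fell with sh_37 (-0.66, SE 0.07, limma adjusted p = 0.000249) and stood at -0.07 with sh_38. The histone-reading subunit ING3 fell with sh_37 (-0.44, limma adjusted p = 0.00939), a call lost without either replicate of sh_37 (highest adjusted p over the alternatives 0.101). JAZF1, a zinc-finger protein that joins the complex, rose with sh_37 (0.675, SE 0.09, limma adjusted p = 0.000548) and fell with sh_38 (-0.41, SE 0.09, limma adjusted p = 0.0232). The fall did not pass against scrambled alone, or without replicate 1 of scrambled, replicate 2 of luciferase or either sh_38 array (highest adjusted p = 0.124). In the SRCAP list YEATS4 with sh_38 was the single call among 9 genes. For this list and those of INO80 and R2TP, 12.9% of all genes were called with sh_37 and 4.6% with sh_38. Of 14 INO80 genes, TFPT was called higher with sh_38 (0.44, limma adjusted p = 0.0193), and not without sh_38 replicate 2 or against luciferase alone. Of 12 genes of the R2TP assembly factor and its clients, PIH1D1 was called lower with sh_37 (-0.25, limma adjusted p = 0.0392), and it passed in 8 of 21 alternatives.

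**Figure D4:**
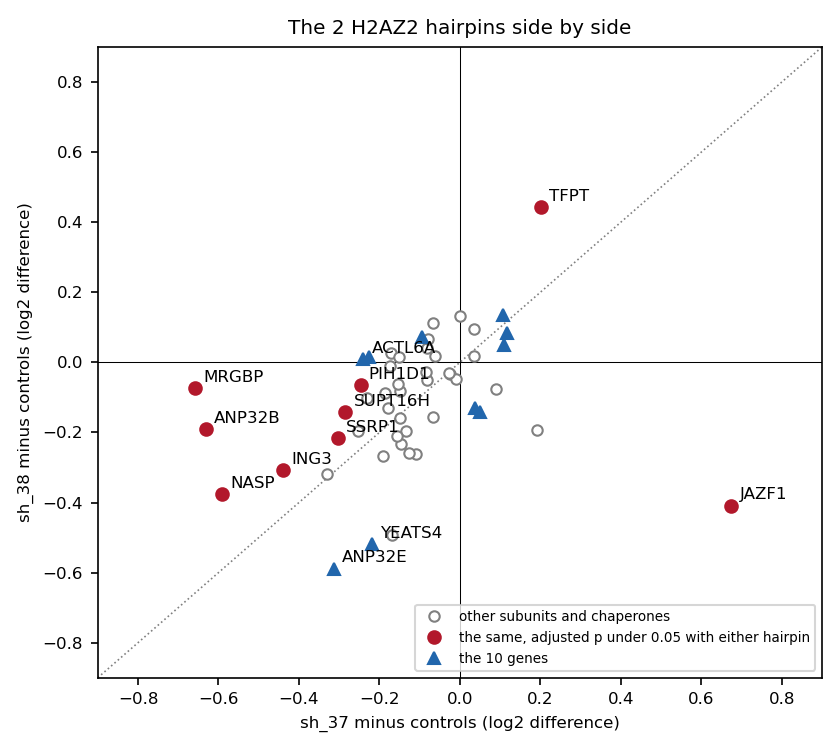
Log2 difference from the controls with sh_37 (horizontal) and sh_38 (vertical) for the 10 genes (triangles) and the 42 other machinery genes (circles, filled where the adjusted p is under 0.05 with either hairpin); both axes share the same control arrays, and the dotted line marks equal values. JAZF1 lies at 0.675 and -0.41, and ANP32E (-0.31 and -0.59) and YEATS4 (-0.22 and -0.52) lie below the dotted line.

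Among lists for reference, 1 of 10 housekeeping genes was called higher and 2 lower with sh_37 and 1 lower with sh_38, GUSB at -0.66 and -0.38. For this and the following lists, the shares called over all genes were 12.9% with sh_37 and 4.6% with sh_38. They were 0.641% with sh_83 and 0.353% with sh_84, all in either direction. Of 8 melanocyte markers PAX3 was called lower with sh_37 and sh_38 (-0.40 and -0.57). SOX10 was called lower with sh_37 (-0.30) at the edge of the threshold, with a limma adjusted p that rounds to 0.05. Of 7 fibroblast markers LUM was called higher with sh_37 and sh_38 (1.27 and 0.38) and lower in the arrays labelled sh_84 (-0.85), and COL1A1 higher with sh_37 (0.69). Within this fibroblast list LUM averaged 8.81 ± 0.44 in the controls (SD, n = 4), and its sh_38 arrays overlapped them. Averaged over that list, H2AZ2 arrays ranged from 6.67 to 6.94 and controls from 6.43 to 6.63, the sh_83 arrays at 6.67 to 6.68 also lay above all controls and the sh_84 arrays ranged from 6.38 to 6.48, and its part in the results above was not tested. None of 6 keratinocyte or 5 endothelial markers was called by limma with any hairpin (at an unadjusted p under 0.05 there were 0 keratinocyte markers with any hairpin and 2 endothelial markers, both with sh_38), and of 5 leukocyte markers CD68 was called lower with sh_37 (-0.58).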

How the data were processed

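The deposited values are log2 expression per probe set, made by the authors with RMA, per the submitters' processing notes. The RMA software, its version, any filter and the array build are not given in the sources used. Of 33297 probe sets, 19460 carry 1 gene symbol, 1754 several and 12083 none, and 19429 of the single-symbol sets were matched by Entrez identifier. For each gene the brightest such probe set was kept, giving 18417 genes, all tested with no filter. limma 3.58.1 in R 4.3.3 (lmFit, eBayes, two-sided, Benjamini-Hochberg over all genes, threshold 0.05) was fitted by hairpin (6 groups of 2, the control being the mean of the scrambled and luciferase groups) and by target (3 groups of 4 with hairpin as a random block, estimated correlation 0.157). The fit by hairpin takes no account of spread between hairpins. Comparisons with the controls share those arrays. In these bulk samples, fewer cells of a type and less RNA per cell cannot be told apart. The number of arrays limits precision.

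The 10 genes, the lists (5 of machinery, and proliferation, housekeeping, melanocyte, keratinocyte, fibroblast, endothelial and leukocyte markers) and the tests were chosen with earlier results of these data known. Of other machinery genes, up to 4 called genes with the largest differences per comparison were named, and SSRP1, SUPT16H, ING3, PIH1D1 and the markers were added after their values were seen. Alternatives covered the normalization, gene filter, probe set summary, variance model, single controls, replicate number as a block, and each replicate or hairpin left out. Leaving the sh_84 arrays out of the spread was chosen after seeing the data. The fit by hairpin was tested on simulated data with independent noise, as was the fit by target without the hairpin block. The fit by target with the block was not tested in this way. Figures were drawn with matplotlib 3.10.9.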

Additional observations from a re-analysis of the deposited data

Results flagged for a closer look

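Differences between hairpin targets, and between hairpins of a target, passed limma's test of the difference itself for 8 values among the 10 genes and the 42 others. Between H2AZ2 and H2AZ1 hairpins these were ANP32E (-0.513, passed in 13 of 25 alternatives, adjusted p 0.0199 to 0.314), YEATS4 (-0.425, passed in 8 of 25, 0.0206 to 0.39), ANP32B (-0.452, passed in 9 of 25, 0.00111 to 0.323) and NASP (-0.365, passed in 9 of 25, 0.0157 to 0.47). All 4 stood lower with H2AZ2 hairpins. Between sh_37 and sh_38 they were JAZF1 (1.084, passed in 19 of 19 alternatives), MRGBP (-0.585, 19 of 19) and ANP32B (-0.441, 15 of 19, lost without any single sh_37 or sh_38 array). JAZF1 also differed between sh_83 and the arrays labelled sh_84 (0.705), with 0.417 and -0.288 against the controls, neither of which passed, and this call held in 14 of 18 alternatives, being lost without any single sh_83 or sh_84 array (highest adjusted p = 0.13). Their causes were not tested. Over all genes 4.35% were called between H2AZ2 and H2AZ1 hairpins, 6.27% between sh_37 and sh_38 and 1.19% between sh_83 and sh_84. No array of the 10 genes stood apart from its target group of 4 by Dixon's criterion.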

How the results depend on the processing

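Of 2140 values of the 10 genes, over every comparison and alternative run, 2097 kept their side of the threshold, 35 lost it and 8 gained it, and no called value changed direction. Most of these values were not called to begin with, and the 35 all belonged to the ANP32E and YEATS4 calls. With sh_38 ANP32E kept its call in 17 of 21 alternatives and YEATS4 in 19 of 21. For H2AZ2 against H2AZ1 hairpins they kept it in 13 and 8 of 25. Of the uncalled values 114 changed sign, the largest of these reaching 0.144 in size. The number of the 10 genes called with sh_37 (0) was 1 with an intensity trend and robust variances and 0 to 2 when 1 replicate was left out. With sh_38 (2) it was 1 against luciferase alone, 1 against scrambled alone and 0 to 2 with a replicate left out. With sh_83 (0) it was 1 with trend and robust variances. For both H2AZ2 hairpins (0) it was 1 without the hairpin block, 2 without sh_37 and 0 to 1 with a replicate left out. For H2AZ2 against H2AZ1 (2) it was 1 with array medians subtracted, 1 without the dimmest 25% of genes and 1 without luciferase. It was 0 without scrambled, sh_38, sh_83 or sh_84, and 0 to 2 with a replicate left out. With the replicate block it was 0 there (ANP32E adjusted p = 0.0656, YEATS4 0.077) and 2 with sh_38, and changed no other count of the 10 genes. The number of the 42 other genes called fell from 2 to 0 with the block in that comparison and rose from 3 to 4 with sh_38. Replicate numbers were not taken as a pairing, since 9 of 15 pairs of hairpins had correlated deviations over 0.1 and 4 were below -0.1. The 6 pairs among scrambled, sh_37, sh_38 and sh_84 correlated at 0.375 to 0.677, and each of the 4 negative ones involved luciferase. The count of the 10 genes kept at 0 in the comparisons not named here. Over all alternatives the count of the 42 ran from 4 to 9 with sh_37 (8), 0 to 5 with sh_38 (3), 0 to 1 with sh_83 (0), 2 to 4 between sh_37 and sh_38 (3) and 0 to 2 between sh_83 and sh_84 (1). It ran from 0 to 4 for H2AZ2 hairpins against controls (1) and 0 to 5 against H2AZ1 hairpins (2). The cause was not tested. The 2 arrays per hairpin limit the precision.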
